A study of Mus musculus with 35 samples.

Results

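The genomic regions described here were listed for RNA polymerase II (Pol II) in resting macrophages. No list made after stimulation with lipopolysaccharide (LPS) held a Pol II region of up to 100 kb there. A wider one overlapped 931 of the 1299 (71.7%) in at least 1 LPS list. The regions were found by joining the Pol II regions of up to 100 kb from 7 deposited lists wherever these overlapped. A joined region was kept if the list of unstimulated cells held it and none of the 6 LPS lists did, a list holding a region if at least 1 bp overlapped. The 7 lists gave 5971 joined regions, 3836 of them held by the unstimulated list. Of these, 1299 (33.9%) were resting-only, and 2537 were also held by at least 1 LPS list and are called retained. The remaining 2135 joined regions were held by LPS lists alone and are called LPS-only. Because the regions were chosen by the Pol II lists themselves, their Pol II widths and scores are given as a description, with no test.

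Pol II transcribes protein-coding genes. It often pauses close to a gene's start before it moves into the gene body, so that chromatin immunoprecipitation finds it both in short peaks and over whole transcribed units. Acetylation of histone H4 (H4ac) marks accessible chromatin at active promoters and enhancers, whereas trimethylation of histone H3 at lysine 27 (H3K27me3) is laid down by Polycomb complexes at silent genes. LPS comes from the outer membrane of Gram-negative bacteria and activates macrophages through Toll-like receptor 4. It turns on inflammatory genes through NF-κB, of which p50 and p65 are subunits, while many genes used at rest are transcribed less. ATF3 is a transcription factor that LPS induces and that restrains part of the inflammatory response.

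The cells were primary macrophages grown from bone marrow of wild-type female C57BL/6 mice aged 8 to 12 weeks, either unstimulated or stimulated with LPS. Chromatin was precipitated with an antibody to 1 of 6 targets and sequenced, and each of the 35 libraries came with 1 list of regions. Pol II had 1 unstimulated library, replicate A, and 6 LPS libraries, namely A and B at 60 min, A at 120 min, A and B at 240 min and A at 360 min. H4ac had replicates A and B unstimulated and at 60, 120 and 240 min. The p50 lists were A, C and D unstimulated and A to D at 60 min, and the p65 lists were X unstimulated, A and X at 60 min and C and X at 120 min. ATF3 had A, B and C at 240 min. H3K27me3 had 1 library each unstimulated and at 120, 240 and 480 min, and 1 more labelled 480 min whose title gives 60 min of LPS and a delay of 7 h. The letters are replicate names. The labels do not say whether they stand for separate animals or cultures. The p-values below therefore reflect library-to-library spread, part or all of which may be technical. The 6 LPS libraries of H4ac were taken at 60, 120 and 240 min, so their spread also includes any difference between these times.

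The lists carry no read counts, so depth is unknown, and a region that a list lacks was not listed rather than shown to be free of the target. The unstimulated Pol II library carries a date in its title that no LPS Pol II library shares, so the date and the resting state cannot be told apart for the choice of the regions. The regions are named by their mm9 coordinates. No annotation of that build was used here, so genes, exons and macrophage markers were not assigned to them.

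The resting-only regions were mostly short, as were other regions held by a single list of letter A. Their median width was 760 bp, with an interquartile range of 290 to 4605 bp and extremes of 100 and 99860 bp. Retained regions had a median of 31580 bp and LPS-only regions one of 4730 bp. Regions held by a single LPS list and no other were shorter still in the 4 A libraries, with medians of 150 to 440 bp, and longer in the B libraries, with 6045 and 6935 bp. In all, 734 resting-only regions (56.5%) were at most 1 kb wide, 326 lay between 1 and 10 kb and 239 were wider than 10 kb. Together they covered 9.85 Mb. The short regions therefore give most of the count, and the long ones most of the covered sequence. By construction a wide joined region meets a region of another list more easily than a short one. Of the Pol II regions of the unstimulated list, 68.4% of those up to 1 kb were resting-only, against 42.9% of those between 1 and 10 kb and 11.9% of the wider ones.

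**Figure D1:**
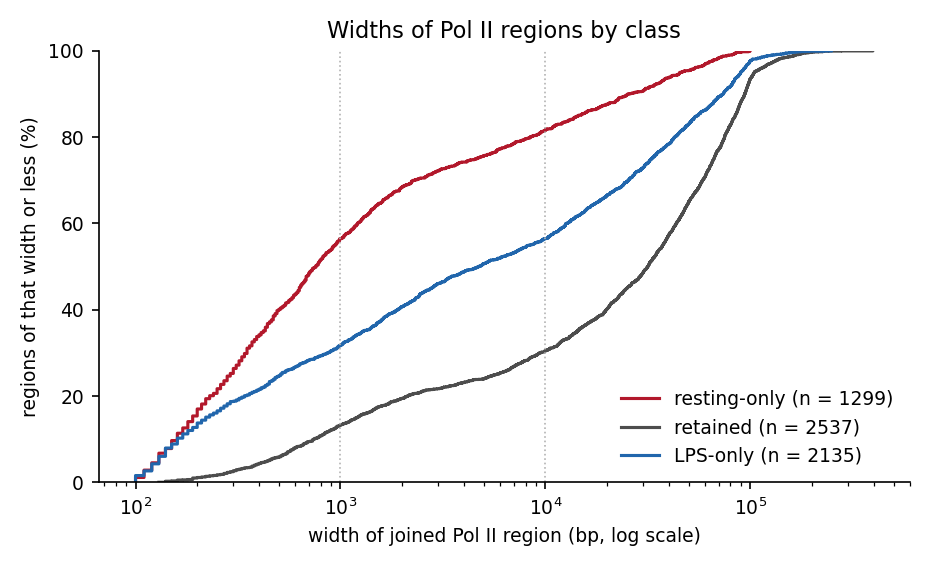
Cumulative share of joined Pol II regions (%) by width (bp, log scale) for the 1299 resting-only, 2537 retained and 2135 LPS-only regions, with dotted lines at 1 and 10 kb. The resting-only curve lies to the left, with 56.5% of its regions at 1 kb or less against 13.4% of the retained ones.

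The resting-only regions also ranked lower by the authors' score, which was deposited with each region and is used here only to rank regions within a list. The median of the best score in a region was 0.619 for resting-only and 1.39 for retained regions. When they were split by score into 4 groups of near-equal size, from the lowest to the highest, 57.2%, 42.3%, 24.9% and 11.0% of the regions of the unstimulated list were resting-only. Most, 1168 (89.9%), came from a single listed region, against 55.2% of the retained ones. Just outside the rule were 432 regions held at rest and by exactly 1 LPS list, with a median width of 1625 bp and a median score of 0.785. The 6 LPS lists contributed 121 (60 min A), 81 (60 min B), 44 (120 min A), 50 (240 min A), 82 (240 min B) and 54 (360 min A) of these single matches.

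Regions held by 1 list alone were found for every library. The share of a list's joined regions that no other list held was 7.8% for 60 min A (200 regions), 8.71% for 60 min B (218), 5.7% for 120 min A (115), 5.39% for 240 min A (122), 12.6% for 240 min B (350) and 10.1% for 360 min A (159). The unstimulated list had the largest share, 33.9%, although it was not the longest list, with 7436 regions against 7728 for 240 min B. It is also the single list of its condition, whereas every LPS list competes with 5 others of stimulated cells. Its share is set by the rule and was not tested.

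By the rule no resting-only region overlaps a joined region held by an LPS list, so the distances are a description without a comparison class. The median distance to the nearest region held by an LPS list was 73.18 kb. Within 1 kb of such a region lay 32 of them (2.46%), within 10 kb 141 (10.9%) and within 100 kb 766 (59.0%). Many more overlapped wide ones. Pol II lists are nested, and 931 resting-only regions (71.7%) overlapped a region wider than 100 kb in at least 1 LPS list, 47 of them in all 6. Below, a region lies in, under or beneath a wide one, and the wide one over it, if they share at least 1 bp. For those 931, the narrowest such LPS region had a median width of 927 kb, was wider than 1 Mb in 450 and was at most 200 kb wide in 175. The remaining 368 (28.3%) touched no LPS Pol II region of any width, against 395 retained regions (15.6%) that lay in no LPS region over 100 kb and 19.9% of all Pol II regions of the unstimulated list. Lying under a wide LPS region was thus common to both classes. Their median width, 730 bp, was close to that of all resting-only regions, and the main H4ac values below are also given for them.

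H4ac was listed at most resting-only regions at rest and at fewer of them after LPS. In replicate A, 87.5% of the 1299 regions touched an H4ac region of up to 10 kb at rest, then 78.8% (60 min), 70.2% (120 min) and 80.8% (240 min). In replicate B the shares were 80.3% at rest, then 59.2%, 48.9% and 60.2% at the same times. Both replicates were thus lowest at 120 min and higher again at 240 min without reaching the resting value, and replicate A was above replicate B at every time. The 95% Wilson intervals, which cover counting error over regions only, were 85.6 to 89.2% for A at rest, 67.7 to 72.6% for A at 120 min, 78.0 to 82.4% for B at rest and 46.2 to 51.6% for B at 120 min.

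Over libraries, the share was 83.9% ± 5.12 (SD, n = 2) at rest and 66.4% ± 12.4 (SD, n = 6) after LPS, a difference of 17.6 percentage points. The groups overlapped, because replicate A at 240 min exceeded replicate B at rest. In an exact two-sided permutation test over libraries p was 0.143, and 0.167 after Benjamini-Hochberg adjustment over 7 tests. With 2 libraries against 6 the smallest p such a test can give is 0.0714, so no comparison of H4ac here can pass 0.05. Within replicate B, whose 4 titles share a date, the LPS shares differed from rest by -21.1, -31.4 and -20.1 points at 60, 120 and 240 min. Within replicate A, whose titles share a date at rest, 60 and 120 min, they differed by -8.70 and -17.3 points, and the library at 240 min, of another date, by -6.70 points.

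**Figure D2:**
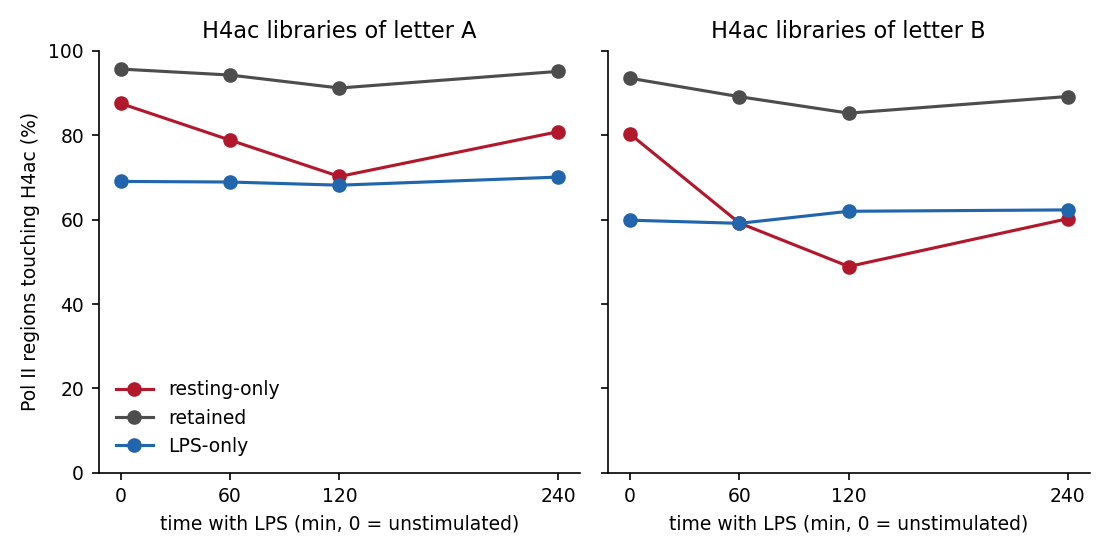
Share of Pol II regions that touch an H4ac region (%) against time with LPS (min, 0 = unstimulated), 1 panel per replicate letter and 1 point per library, for resting-only, retained and LPS-only regions. Resting-only regions go from 87.5% to 70.2% (A) and from 80.3% to 48.9% (B) between 0 and 120 min, while LPS-only regions stay between 59.1% and 70.1%.

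H4ac lists differ in length, from 15256 to 28522 regions, and both unstimulated lists are longer than every LPS list of the same letter. Each library was therefore also read as the difference between classes within it. This difference need not take out list length, so shares with lists of equal length are given below. Retained regions touched H4ac in 95.7% (A) and 93.5% (B) at rest and in 91.2% and 85.2% at 120 min, their lowest values. The resting-only minus the retained share was -8.14 points (A) and -13.2 points (B) at rest, and ranged from -36.3 to -14.3 points in the 6 LPS libraries. The mean difference was -10.7 ± 3.58 points (SD, n = 2) at rest and -24.3 ± 8.82 (SD, n = 6) after LPS. These groups did not overlap, and the exact permutation p was 0.0714, the smallest possible (adjusted 0.125). So the gap between the classes was wider in every LPS library than in either unstimulated one, by 13.6 points on average.

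Compared with LPS-only regions, the resting-only regions had more H4ac at rest, which did not hold in every LPS library. At rest their share was higher by 18.5 (A) and 20.4 points (B). At 120 min the difference was 2.06 points in A and -13.1 in B. The mean was 19.5 ± 1.37 points (SD, n = 2) at rest and 1.28 ± 8.77 (SD, n = 6) after LPS, again without overlap (exact permutation p = 0.0714, adjusted 0.125). LPS-only regions differed little over time: their share in A was 69.0% at rest and lowest at 120 min, at 68.1%, whereas in B it was 59.9% at rest and 62.0% at 120 min. Every H4ac list was also cut by score to 11842 regions, the number of up to 10 kb in the shortest one. Resting-only shares were then 75.2% and 70.1% at rest and 54.2% and 48.9% at 120 min, in A and B. Retained shares were then closer together (89.8% and 88.1% at rest, 86.0% and 85.2% at 120 min), and LPS-only shares were higher at 120 min (60.2% and 62.0%) than at rest (49.8% and 47.2%).

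The short regions alone showed the same order. Among those up to 1 kb, 734 resting-only and 339 retained, the class difference was -5.01 ± 3.52 points (SD, n = 2) at rest and -16.5 ± 7.18 (SD, n = 6) after LPS, without overlap (exact permutation p = 0.0714, adjusted 0.125). The 368 regions outside LPS Pol II of any width touched H4ac in 84.6% ± 5.57 (SD, n = 2) at rest and 67.2% ± 11.5 (SD, n = 6) after LPS, and the exact permutation p was 0.143 (adjusted 0.167). Measured in base pairs, H4ac covered 16.8% ± 1.80 (SD, n = 2) of the resting-only sequence at rest and 9.43% ± 3.13 (SD, n = 6) after LPS, without overlap (exact permutation p = 0.0714, adjusted 0.125). The size of the H4ac regions mattered: with H4ac regions up to 1 kb alone the share at rest minus that after LPS was -2.22 points (exact permutation p = 0.571), although the class difference kept its sign.

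H4ac after LPS went with the number of LPS lists that held Pol II. At 120 min the mean H4ac share of the 2 libraries was 59.5% where no LPS list held the Pol II region, 81.4% with 1 list, 80.3% with 2, 88.5% with 3, 90.3% with 4, 92.0% with 5 and 93.8% with 6. At rest the range was narrower, from 83.9% with none to 96.1% with 6. At 120 min the step from no list to 1 list was larger than all later steps together. Width differed along the same axis, with a median of 760 bp for none and 51980 bp for 6, and its part in this pattern was not tested.

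**Figure D3:**
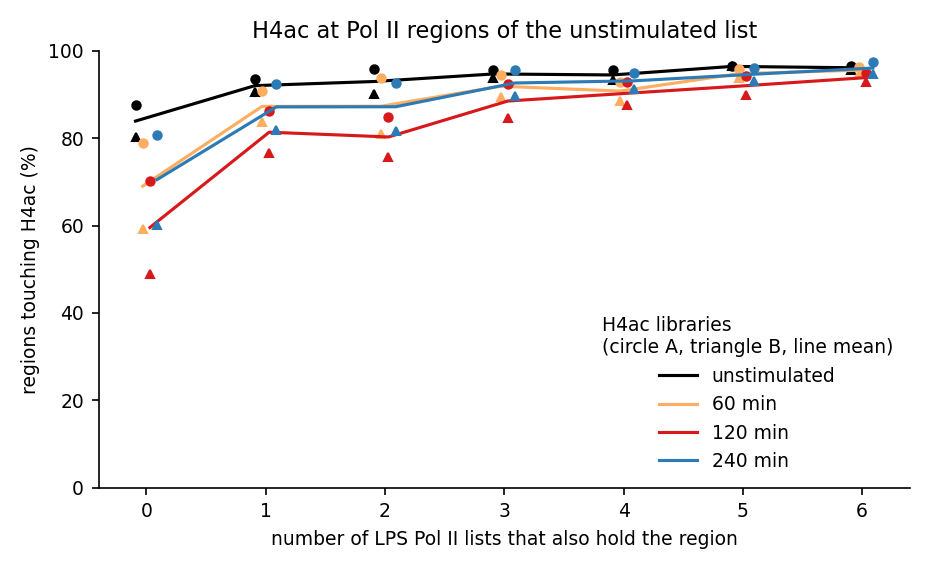
Share of Pol II regions of the unstimulated list that touch H4ac (%) against the number of LPS Pol II lists that also hold the region; circles and triangles are replicates A and B, lines are means of both, and colours are the times. The resting-only regions stand at 0 lists, where the mean is 83.9% at rest and 59.5% at 120 min; at 6 lists the means are 96.1% and 93.8%.

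Followed region by region, 1018 of the 1299 resting-only regions (78.4%) touched H4ac in both unstimulated libraries, against 87.6% of all Pol II regions of the unstimulated list. A further 144 did so in 1 library and 137 in neither. Of the 1018, both 60 min libraries held H4ac at 681, 1 at 236 and neither at 101, or 9.92% (4.58% of all such Pol II regions). At 120 min, 565 had it in both libraries, 256 in 1 and 197 in neither, or 19.4% (8.93% of all). At 240 min the counts were 701, 231 and 86, the last being 8.45% (3.84% of all). Among the 2342 retained regions with H4ac in both unstimulated libraries, H4ac was in neither library for 2.26%, 4.40% and 1.84% at 60, 120 and 240 min. The 293 such regions outside LPS Pol II of any width had shares of 10.2%, 19.8% and 8.19%.

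**Figure D4:**
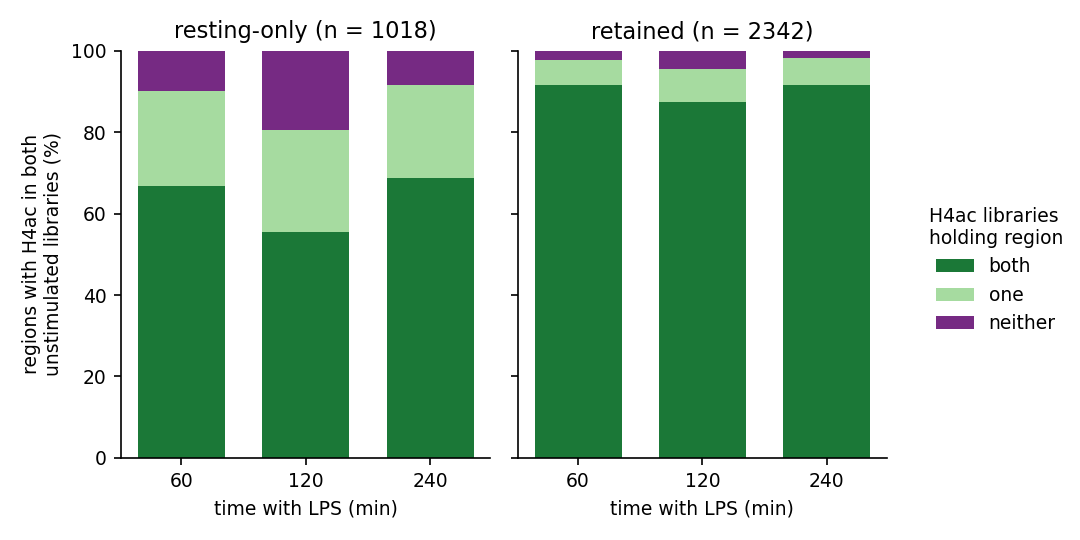
Pol II regions with H4ac in both unstimulated libraries, split by whether both, one or neither of the 2 libraries at 60, 120 and 240 min of LPS held H4ac there (%, stacked to 100); left, 1018 resting-only regions, and right, 2342 retained regions. The neither part reaches 19.4% of resting-only and 4.40% of retained regions at 120 min.

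The replicates shared part of the absence of H4ac at 120 min. A lacked it at 217 of the 1018 regions and B at 433, and both at 197, or 90.8% of those in A and 45.5% of those in B. For retained regions the same shares were 74.6% and 40.1%. Of the 197 regions without H4ac in either library at 120 min, 49 had it in both at 240 min, 77 in 1 and 71 in neither. Of the 103 retained regions in that state, 35 had it in both, 37 in 1 and 31 in neither, and 28% of all such Pol II regions had it in both. Without replicate B at 120 min, the library with the shortest list, A alone had to hold H4ac at that time. The share was then 78.7%, in place of the 55.5% that asks for both libraries. With H4ac regions of all widths, so that wide H4ac regions over them counted too, the share in both 120 min libraries was 79.3%.

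Of the courses counted, H4ac throughout was the most frequent. It was held by all 8 libraries at 452 regions (34.8%, against 61.9% of all Pol II regions of the unstimulated list), and these had a median width of 585 bp. In no library did 88 regions touch it (6.77%, against 3.18%), with a median width of 5820 bp. There were 38 regions with H4ac in both unstimulated libraries and no LPS library, or 3.73% of the 1018 (1.55% of all such Pol II regions). The opposite course, H4ac in neither unstimulated library and in both at 240 min, was seen at 12 regions (0.924%), close to the 0.938% of all Pol II regions of the unstimulated list.

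Where H4ac was listed, it also ranked lower after LPS, a description with no test. The median score percentile of the H4ac regions touching resting-only Pol II, within their own list, was 77.0 (A) and 69.1 (B) at rest and 56.5 and 43.6 at 120 min. For retained regions the same percentiles were 87.0 and 81.2 at rest and 83.8 and 77.3 at 120 min. The median resting-only region was covered by H4ac over 100% (A) and 80.1% (B) of its length at rest, and over 45.5% and 0% at 120 min. These percentiles include the regions touched in each library, which are not the same regions at each time.

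The 10 resting-only regions with the best Pol II scores had H4ac in both unstimulated libraries. The first, chr17:84580671-84583250, was 2580 bp wide with a score of 5.804, the 46th best of the unstimulated list. It touched H4ac in both libraries at rest, in B alone at 60 min, in neither at 120 min and in both at 240 min. The second, chr1:89516871-89520270 (3400 bp, score 4.114), had H4ac in both libraries at rest, in none at 60 and 120 min and in A at 240 min. The fourth, chr7:152114581-152125720 (11140 bp, score 4.0088), followed the same course. Within the width limits used, up to 100 kb for Pol II and up to 10 kb for H4ac, these 3 regions had both at rest and neither at 120 min. Pol II regions of over 100 kb lay over them in 3, 4 and 1 LPS lists.

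H4ac of up to 10 kb was listed in no LPS library in 3 of the 10. These were chr13:94943741-94971020 (27280 bp, score 3.9165), chr14:73586801-73645070 (58270 bp, score 3.7249) and chr11:75344741-75347110 (2370 bp, score 3.4454). Wide Pol II regions of over 100 kb lay over them in 2, 6 and 4 LPS lists. By contrast chr13:81023921-81025650 (1730 bp, score 4.0415) had H4ac in all 8 libraries, and a Pol II region held under LPS began only 0.18 kb away. Another region, chr11:114782061-114795830 (13770 bp, score 3.4062), lay in no LPS Pol II region of any width. It lacked H4ac at 120 min alone, with both libraries holding it at rest, 60 and 240 min. The last 2 of the 10, chr7:152296511-152297290 (780 bp) and chr19:10092611-10117670 (25060 bp), had H4ac in both libraries at 240 min and in at least 1 at 60 and 120 min.

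Among the best-scored regions with H4ac at rest alone were also chr13:56710641-56720470 (9830 bp, score 3.3346), 425.51 kb from the nearest Pol II region held under LPS and in no wide one, and chr8:13458711-13494440 (35730 bp, score 3.1919). Regions without H4ac in any library were led by chr1:89604941-89625140 (20200 bp, score 3.025). Next came chr13:56741121-56743350 (2230 bp, score 2.5025) and chr1:89574161-89604940 (30780 bp, score 2.4778). All 3 lie in blocks, described next, that also hold resting-only regions with H4ac. At the other end, chr12:25783341-25785560 (2220 bp, score 3.2954) kept H4ac in all 8 libraries and directly abutted a Pol II region held under LPS, as did 10 resting-only regions in all. The 5 widest resting-only regions, of 89470 to 99860 bp, had H4ac in both unstimulated libraries. In 2 of them, chr11:103030911-103129750 and chr4:107473631-107571700, all 8 libraries held it, and neither lay in an LPS Pol II region of any width.

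Some resting-only regions sat side by side. With a gap of at most 50 kb, 944 stood alone and 355 (27.3%) fell into 138 groups, of which 41 had at least 3 members. Grouping is given for these regions alone, so it is not shown to be particular to them. Of the 1299, 585 touched a region over 100 kb of the unstimulated list itself, which the width limit leaves out. Some neighbours directly abut, such as chr1:89574161-89604940 and chr1:89604941-89625140. The 10 groups of at least 5 are described as blocks, numbered by size. They were picked after their positions and values were known. Block 1, chr1:89516871-89625140, held 9 regions that covered 106.09 of 108.27 kb. H4ac touched 4 (A) and 6 (B) of the 9 at rest, none at 60 or 120 min in either replicate, and 3 (A) and 0 (B) at 240 min. No LPS Pol II region of up to 100 kb lay in it, and those wider, in 4 LPS lists, spanned at least 2735 kb.

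Block 2, chr11:75323111-75394300, also had 9 regions, over 71.19 kb, beneath LPS regions of at least 299.06 kb in 4 lists. H4ac touched 7 of them in each unstimulated library, none at 60 min, 1 (A) and 0 (B) at 120 min and 3 (A) and 0 (B) at 240 min. Block 3, chr9:32223491-32349440, had 7 regions over 125.95 kb, and block 10, chr13:56710641-56743350, had 5 over 32.71 kb. Neither lay in any LPS Pol II region, whatever its width. In both, H4ac touched 3 (A) and 2 (B) regions at rest and none in any of the 6 LPS libraries. The H4ac sequence in block 3 came to 22.24 kb (A) and 13.47 kb (B) at rest and 0 kb thereafter.

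Block 5, chr17:84499801-84588150, had 6 regions and contains the one with the best score. H4ac touched 5 (A) and 6 (B) of them at rest, 0 and 6 at 60 min, 1 and 0 at 120 min and 6 and 3 at 240 min. The replicates thus differed at 60 min and were both low at 120 min. Block 7, chr7:74425381-74515190, went the other way, with no H4ac at rest in either replicate and 2 of its 5 regions touched in each at 240 min. Here the width limit of 100 kb decides, since 3 LPS lists held regions of 102.24 to 154.74 kb over the block. Blocks 4 (chr13:108511321-108694400) and 8 (chr4:59818561-59921370) likewise overlapped regions of at most 178.73 and 146.22 kb in the 2 LPS lists of 60 min. Block 4 spans 183.08 kb, so neither list's region covers it whole. Block 6 (chr11:114974121-115138740) and block 9 (chr4:154524211-154596650) each lay under a wide region of 1 LPS list, of 4297 and 18679 kb. Blocks 5 and 6 were the ones that also had a shorter LPS Pol II region in their span, 1 each.

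**Figure D5:**
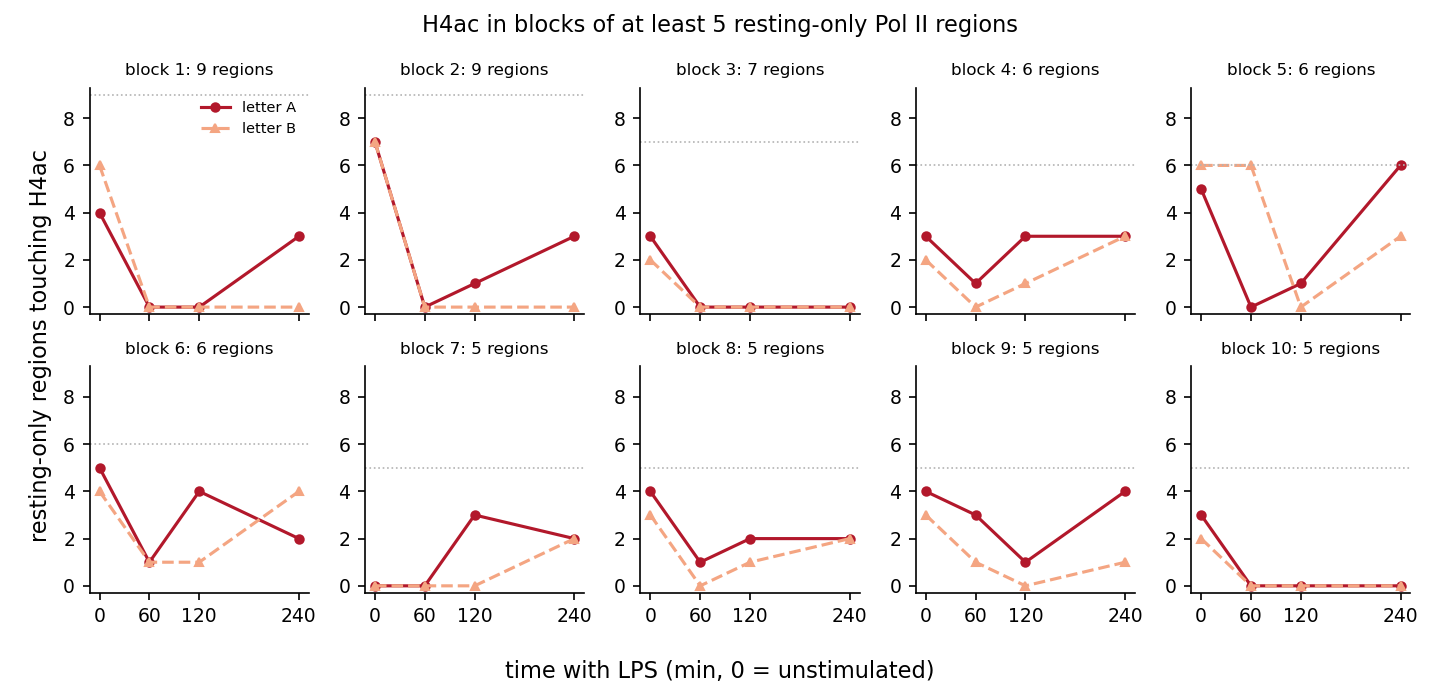
Number of resting-only Pol II regions that touch H4ac in each of the 10 blocks of at least 5 such regions, against time with LPS (min, 0 = unstimulated); solid lines with circles are replicate A, dashed lines with triangles replicate B, and the dotted line is the number of regions in the block. Blocks 3 and 10 go from 3 (A) and 2 (B) to 0 in every LPS library, while block 7 starts at 0.

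The NF-κB subunit p50 was seldom found at resting-only regions. The unstimulated libraries A, C and D touched 2, 7 and 1 of the 1299, and the LPS libraries A, B, C and D touched 7, 11, 23 and 2. The groups overlapped, and replicate C was the highest in both. The share was 0.257% ± 0.247 (SD, n = 3) at rest and 0.828% ± 0.690 (SD, n = 4) after LPS, with an exact two-sided permutation p of 0.286 (adjusted 0.286; the smallest possible is 0.0571). Within replicates A and C, which share a title date, and within D, the LPS library was the higher one each time. The LPS lists of A and C are also the longer ones (1378 against 424 regions and 1253 against 447), and with p50 lists of equal length the difference was -0.0770 points (exact permutation p = 0.629). Retained regions had 2.39% ± 0.808 (SD, n = 3) at rest and 8.77% ± 4.83 (SD, n = 4) after LPS. A p50 region in at least 2 libraries was found at 11 resting-only regions, or 0.847%, against 7.46% of all Pol II regions of the unstimulated list and 10.8% of the retained ones. The difference was small among regions up to 1 kb, with 4 of 734 resting-only (0.545%) and 4 of 339 retained (1.18%). It was larger in the wider classes, with 0.920% against 5.07% between 1 and 10 kb and 1.67% against 14.1% above 10 kb.

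By Pol II score, the first of the 11 was chr7:52308351-52309500 (1150 bp), with p50 in B at 60 min and C at rest and with H4ac in 7 of 8 libraries. The second, chr17:84499801-84578300 (78500 bp) in block 5, had p50 in 6 of 7 libraries, the exception being D at 60 min, and ATF3 in A. On chromosome 11 lay a pair of short ones, chr11:3032981-3033280 (300 bp) and chr11:3093351-3093460 (110 bp). Both also held p65 in C and X at 120 min, and both lay within 2.3 kb of a Pol II region held under LPS. H4ac was in 6 of 8 libraries at each. The 300 bp region also touched ATF3 in B and H3K27me3 in the unstimulated and the delay library, so all 6 targets were listed there. The fourth, chr19:40733361-40818920 (85560 bp), had p50 in B and C at 60 min together with p65 in A at 60 min and C at 120 min. It also had ATF3 in A.

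The p65 libraries of letter X touched 19 resting-only regions at rest (1.46%, 95% Wilson interval 0.938 to 2.27%), 38 at 60 min (2.93%, 2.14 to 3.99%) and 26 at 120 min (interval 1.37 to 2.92%). The other p65 libraries, A at 60 min and C at 120 min, touched 7 and 10. The X lists are short, with 255 to 814 regions, while A and C held 2285 and 2110, so the shorter lists met more resting-only regions. Of the 204 joined regions in the unstimulated X list, 9.31% touched a resting-only Pol II region and 31.4% a retained one. All 3 X libraries shared p65 at 12 resting-only regions (0.924%, against 1.07% of all Pol II regions of the unstimulated list), of median width 340 bp. With 1 unstimulated p65 library there was no test.

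ATF3, profiled at 240 min alone, touched 76 (A), 9 (B) and 15 (C) resting-only regions, or 5.85%, 0.693% and 1.15%. Replicate A stood above the others and has the longest list, 3954 regions against 1257 and 2604. At least 2 ATF3 libraries met at 7 regions (0.539%, against 2.76% of all Pol II regions of the unstimulated list), none of them up to 1 kb wide. Retained regions up to 1 kb had none either. Between 1 and 10 kb the shares were 0.613% of resting-only and 0.691% of retained regions, and above 10 kb 2.09% and 5.44%. One of the 7 was chr4:134023981-134113450 (89470 bp), joined from 6 listed regions, with ATF3 in A and C.

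H3K27me3, the Polycomb mark, was rare at these regions before and after LPS. It touched 32 of them in the unstimulated library (2.46%, 95% Wilson interval 1.75 to 3.46%), 14 at 120 min (1.08%, 0.643 to 1.80%), 12 at 240 min (0.924%, 0.529 to 1.61%) and 23 at 480 min (1.77%, 1.18 to 2.64%). The library with 60 min of LPS and a delay touched 31 (2.39%, 1.69 to 3.37%). No LPS library thus touched more of them than the unstimulated one, and each time has 1 library, so there was no test. The lists differ in length, with 4280 regions at rest, 2687 at 120 min, 2945 at 240 min, 4648 at 480 min and 4707 with the delay. Retained regions were touched in 5.16% at rest, 3.71% at both 120 and 240 min, 5.64% at 480 min and 5.79% with the delay. By width, the unstimulated library touched 1.36% of resting-only and 2.36% of retained regions up to 1 kb. Its shares were 2.15% and 1.84% between 1 and 10 kb and close together, 6.28% and 6.52%, above 10 kb. The unstimulated library carries a title date that no LPS library of this target shares. List length, date and LPS were not told apart. In at least 3 libraries it was found at 15 regions (1.15%, against 3.15% of all Pol II regions of the unstimulated list), and 14 of these had H4ac in both unstimulated libraries, as did 93.4% of all Pol II regions of the unstimulated list with H3K27me3 in at least 3. In 5 regions (0.385%, against 1.51%) it was present in all 5 libraries. The best-scored of those 5 was chr16:94534151-94535140 (990 bp), which also had H4ac in all 8. By score the first of the 15 was chr8:121960661-121970680 (10020 bp), with H3K27me3 in 4 libraries and H4ac in both libraries at rest and at 240 min, in A at 120 min and in neither at 60 min.

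None of p50, p65, ATF3 and H3K27me3 touched 1095 of the resting-only regions (84.3%, against 66% of all Pol II regions of the unstimulated list and 56.6% of the retained ones). Among regions up to 1 kb the shares were 89.4% for resting-only and 87.9% for retained, with overlapping 95% Wilson intervals (86.9 to 91.4% and 84.0 to 91.0%). In the wider classes the intervals did not overlap, but they cover counting error over regions only and no spread between libraries. Between 1 and 10 kb the shares were 85.6% (81.4 to 89.0%) for resting-only and 77.0% (72.8 to 80.7%) for retained, and above 10 kb they were 66.9% (60.8 to 72.6%) and 45.6% (43.3 to 47.9%). Width was not matched within a class. Above 10 kb, the regions counted here had median widths of 24775 bp (resting-only) and 38665 bp (retained). Of the 1299, 79 (6.08%) touched no region of any other target, H4ac included, against 27 retained regions (1.06%), 360 LPS-only regions (16.9%) and 2.76% of all Pol II regions of the unstimulated list.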

How the data were processed

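Each library had 1 deposited list without a header, with a position, a scale number and a score per region. The score is the authors' own, and how it was made is not given in the sources used here, nor are the aligner and the region caller. Build mm9 is named in the submitters' processing notes. Coordinates are 1-based. Regions up to 100 kb were used for Pol II and H3K27me3 and up to 10 kb for H4ac, p50, p65 and ATF3. A region touched another if they shared at least 1 bp. Lists were compared with Python 3.11.15, pandas 2.3.3 and numpy 2.4.6, and the joining, coverage and permutation code was tested on simulated data. Libraries were compared by their shares with exact permutation tests, two-sided, with Benjamini-Hochberg adjustment over 7 tests, of which 3 were planned and 4 were added after seeing the data. Named regions were the 10 with the best score, the 5 widest, and the 5 with the best score having H4ac at rest and in no LPS library, in all 8 libraries or in none, p50 in at least 2 or H3K27me3 in at least 3 libraries; positions of some are not reported here. The members and lists were chosen with earlier results of these data known. Gene and marker lists were planned, but no mm9 annotation was used here, so they were not counted. Alternatives covered width limits, overlap, list length, score, joining and leaving out each library.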

Additional observations from a re-analysis of the deposited data

How the results depend on the processing

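The number of resting-only regions, 1299, stayed within 1.5 times of its value under a limit of 10 kb, the better-scored 50% of each list, a 50% overlap and joining across 1 kb, and between 1356 and 1437 with each LPS Pol II library left out in turn. It was 268 with Pol II regions of all widths and 639 with Pol II lists of equal length. It was 368 outside LPS regions of any width and 734 when regions up to 1 kb alone were counted. The difference in H4ac share between rest and LPS kept its sign in 27 of 28 alternatives, from 7.06 to 21.2 points (exact permutation p from 0.0714 to 0.571), and was -2.22 points with H4ac regions up to 1 kb. The difference between resting-only and retained regions kept its sign in all 28, from 3.88 to 16.2 points (exact permutation p from 0.0714 to 0.286). The share of regions keeping H4ac in both 120 min libraries, 55.5%, was 62.1% with Pol II regions of all widths, 63.0% with the better-scored 50%, 62.1% with a 50% overlap of Pol II and 63.5% for regions up to 1 kb. It was 66.1%, 35.4% and 79.3% with H4ac regions up to 100 kb, up to 1 kb and of all widths, 48.4% where H4ac had to cover 50% of the region, and 52.3% to 78.7% with 1 library left out. Where a 120 min H4ac library was left out, the other one alone had to hold H4ac, a weaker condition. The p50 difference kept its sign in 23 of 24 alternatives, from 0.257 to 1.51 points, and was -0.0770 points with p50 lists of equal length. The unstimulated p65 share, 1.46%, was 3.73% with Pol II regions of all widths and 2.45% outside LPS regions of any width. The mean ATF3 share, 2.57%, was 1.58% with Pol II regions up to 10 kb, 3.86% with all widths and 0.817% for those up to 1 kb. The unstimulated H3K27me3 share, 2.46%, was 1.39% with Pol II regions up to 10 kb, 1.56% with lists of equal length and 1.36% for those up to 1 kb. The cause of these shifts was not tested. With the letter as a replicate block, the differences were 17.6 points for the H4ac share (exact permutation p = 0.125), 13.6 points against retained regions (p = 0.125) and 0.565 points for p50 (p = 0.250), so no call changed. Those p-values are the smallest the block allows for H4ac with 2 letters. The labels do not say that libraries of 1 letter share cells.

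With Pol II regions of all widths, 28 of the 36 named regions no longer were resting-only, and with joining across 1 kb 5 of them were not. Without read counts, the depth behind a missing region is unknown. The unstimulated state of Pol II rests on 1 library, so the spread of the count between unstimulated libraries could not be measured.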

Other observations

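The share of the Pol II regions of the unstimulated list that were resting-only differed between chromosomes, from 26.5% of 136 on chromosome 14 to 39.5% of 291 on chromosome 2, with 39.1% of 276 on chromosome 11 and 30.5% of 105 on the X chromosome. The 432 regions held at rest and by exactly 1 LPS list lay between the resting-only and the retained regions in H4ac. Their H4ac share was 92.0% ± 2.13 (SD, n = 2) at rest and 85.3% ± 5.81 (SD, n = 6) after LPS. The regions held by a single LPS list alone were of 2 kinds by width: the median was 6045 bp for 60 min B and 6935 bp for 240 min B, against 325 bp for 60 min A and 415 bp for 240 min A, and the A and B libraries of a time carry different dates in their titles.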
